A study of Mus musculus with 10 samples.

Results

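The mRNAs of the GADD45 stress proteins and of the kinases that carry their signal to p38 were followed in mouse pmel-1 T cells that had been electroporated with cytokine mRNA. The set holds 9 genes of the 55359 in the count table, chosen by name: Gadd45a, Gadd45b, Gadd45g, Map3k4, Map2k3, Map2k6, Mapk11, Mapk13 and Mapk14. Of these, 8 had enough reads to be tested, and Mapk13 did not.

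GADD45 proteins are small stress-induced proteins without enzyme activity of their own. They bind the kinase MEKK4 (Map3k4) and release it from its inactive form. MEKK4 then passes the signal to MKK3 (Map2k3) and MKK6 (Map2k6), the kinases that phosphorylate p38. In mouse T cells GADD45β and GADD45γ are known for sustaining p38 activity and interferon-γ production after stimulation with IL-12 and IL-18. GADD45α is known in the same cells for restraining another route to p38, which starts at the T cell receptor. The activity of all these kinases is set by phosphorylation, which RNA counts do not measure.

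Pmel-1 cells are CD8 T cells of a mouse line whose transgenic receptor sees the melanoma antigen gp100. All cells came from spleen, were activated for 48 h with human gp100 peptide and kept for another 48 h with human IL-2. Electroporated cells were cultured for 24 h before RNA was taken. There are 5 groups of 2 libraries each: cells given a mixture of scIL-12 and DRIL18 mRNA (mixture), cells given scIL-12 mRNA (IL12), cells given mRNA for DRIL18, a decoy-resistant IL-18 (DRIL18), electroporated controls (Mock) and wild-type cells that were not electroporated (NoEp). The sources used here do not name the mRNA given to Mock cells. The labels call the libraries of a group biological replicates but do not say whether they came from separate animals or cultures, so p-values speak only of the spread between these libraries.

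The mark bis stands on the count columns of both mixture libraries, both NoEp libraries, IL12 replicate 2 and DRIL18 replicate 2. The sources used here do not explain this mark, and it was tried as a term of the fit. The libraries held between 31281944 and 35062545 counts. Values are read counts scaled to a common library total (CPM) on library sizes scaled with TMM, a method that evens out differences in RNA composition. Changes are log2 fold changes from edgeR's quasi-likelihood test on the raw counts of all 10 libraries. A gene was called changed at an adjusted p under 0.05, adjusted by Benjamini and Hochberg's method over the 15777 genes tested. Il18 stood at 402 and 360 CPM in the mixture and at 412 and 401 CPM in DRIL18 libraries. It was at 1.83 and 1.73 CPM with IL12, at 1.84 CPM in each Mock library, and at 2.32 and 1.73 CPM in NoEp libraries. Delivered mRNA and the cells' own are not told apart in these reads. Ifng, the gene of interferon-γ, stood at 8877 and 9104 CPM in the mixture, 210 and 189 with IL12, 17.5 and 17.2 with DRIL18, 0.905 and 1.43 in Mock, and 1.38 and 1.36 in NoEp.

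Markers of the labelled cells were present. The summed level of 7 CD8 T cell markers was 2096 to 2127 CPM in the mixture, 2550 to 2620 with IL12, 2932 to 2944 with DRIL18, 3074 to 3089 in Mock and 3201 to 3305 in NoEp. All 7 passed as lower in the mixture than in Mock. The summed level of 6 B cell markers was 30.2 to 33.1 CPM in the mixture, 19.3 to 21.4 with IL12, 27.9 to 29.8 with DRIL18, 23.2 in each Mock library and 27.9 to 29.2 in NoEp. Of these, 4 passed as higher and 1 as lower in the mixture than in Mock. The 3 markers of CD4 and regulatory T cells summed to 28.5 to 32.8 CPM in the mixture, against 39.7 to 43.4 CPM in Mock. Of these, 2 passed as lower and 1 did not pass. Most of the sum was Zbtb7b, at 25.3 CPM in the mixture and 35.5 in Mock, while Cd4 averaged 5.25 and 5.03 CPM. Myeloid and NK cell markers summed to under 3 CPM in every library. In bulk RNA, fewer cells of a type and less RNA per cell cannot be told apart, and the part of these shifts in the changes below was not tested.

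The promoters of the 3 GADD45 genes are shown because these family members moved differently from each other. Each line gives the 250 bases before the RefSeq gene start on GRCm38.p6, read along the gene's strand, with TATAAA and CCAAT boxes in capitals. Gadd45b lies on the plus strand at chr10:80929841-80930090, Gadd45g on the plus strand at chr13:51846425-51846674, and Gadd45a on the minus strand at chr6:67037408-67037657.
Gadd45b: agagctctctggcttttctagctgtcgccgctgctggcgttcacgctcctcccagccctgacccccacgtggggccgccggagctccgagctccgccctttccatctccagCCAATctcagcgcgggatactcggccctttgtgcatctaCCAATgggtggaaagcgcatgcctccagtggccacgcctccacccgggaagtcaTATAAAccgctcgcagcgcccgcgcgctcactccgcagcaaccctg
Gadd45g: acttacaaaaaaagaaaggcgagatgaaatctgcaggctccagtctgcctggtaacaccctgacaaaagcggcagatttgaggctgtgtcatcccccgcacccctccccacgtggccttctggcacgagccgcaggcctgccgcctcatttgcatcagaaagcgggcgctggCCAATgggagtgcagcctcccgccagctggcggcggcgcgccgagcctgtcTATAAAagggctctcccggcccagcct
Gadd45a: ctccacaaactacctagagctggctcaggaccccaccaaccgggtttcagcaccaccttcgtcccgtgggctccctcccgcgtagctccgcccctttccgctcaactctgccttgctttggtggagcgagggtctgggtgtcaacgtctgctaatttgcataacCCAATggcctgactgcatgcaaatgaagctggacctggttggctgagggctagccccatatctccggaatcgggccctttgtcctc

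The 3 promoters were searched on both strands for the STAT motif TTCNNNGAA, the NF-κB motif and the AP-1 motif TGANTCA. Among 32851 RefSeq promoters of the same length, 7.02%, 7.25% and 6.75% held them, in that order. None of the windows of Gadd45b, Gadd45g and Gadd45a held any of these letters. TATAAA and CCAAT were added after the sequences had been seen, and 12.4% and 33.8% of all promoters held them. The Gadd45b window had TATAAA 46 bases before the start and 2 CCAAT boxes. The Gadd45g window had TATAAA 27 bases before the start and 1 CCAAT box. The Gadd45a window had 1 CCAAT box and no TATAAA. No hit in these windows overlapped another. Of the kinase genes, Mapk14 had 1 STAT match in 1 of its 2 windows, and Map2k6 had 1 AP-1 match in 1 of its 3 windows. A match is a stretch of letters, not a measured binding site.

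To see how each cytokine mRNA changes the route from GADD45 to p38, every treated group was compared with Mock, which served as the control for all of these comparisons. Both mixture libraries carry the mark bis and no Mock library does, so these groups alone cannot separate the mark from the treatment. As a term of the fit, the mark is estimated within the IL12 and DRIL18 groups only. With that term 7 of the 8 tested genes passed in the mixture, as without it. In the mixture, Gadd45b and Gadd45g rose 7.02-fold and 10.2-fold, Map2k3 rose slightly, and Map2k6, Mapk14, Map3k4 and Gadd45a fell. So 3 of the 8 tested genes were higher and 4 lower, beside 32% and 31.9% of all tested genes. With IL12, 2 were higher and 3 lower, beside 23% and 23.6% of all tested genes. With DRIL18, 1 was higher and 4 lower, beside 12.2% and 12.1%. The median log2 fold change of the 8 genes was -0.41 in the mixture, -0.08 with IL12 and -0.21 with DRIL18. In the mixture it falls between Mapk11 (-0.07) and Map3k4 (-0.75), with no gene near it. The median of all tested genes was within 0.01 of 0 in each, where TMM scaling tends to place it.

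Mock against NoEp sets the electroporated controls beside cells that were not electroporated. Both NoEp libraries carry the mark bis and no Mock library does, and only NoEp cells are called wild-type. Electroporation cannot be told apart from these differences in this comparison. In it, 2 of the 8 genes were higher and 0 lower, beside 3.34% and 3.64% of all tested genes. The 2 were Gadd45g (0.30) and Map2k3 (0.16). By edgeR, 1 gene was lower at an unadjusted p under 0.05 (Mapk11, -0.25, adjusted p = 0.135), and DESeq2 and limma-voom also called none lower.

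**Figure D1:**
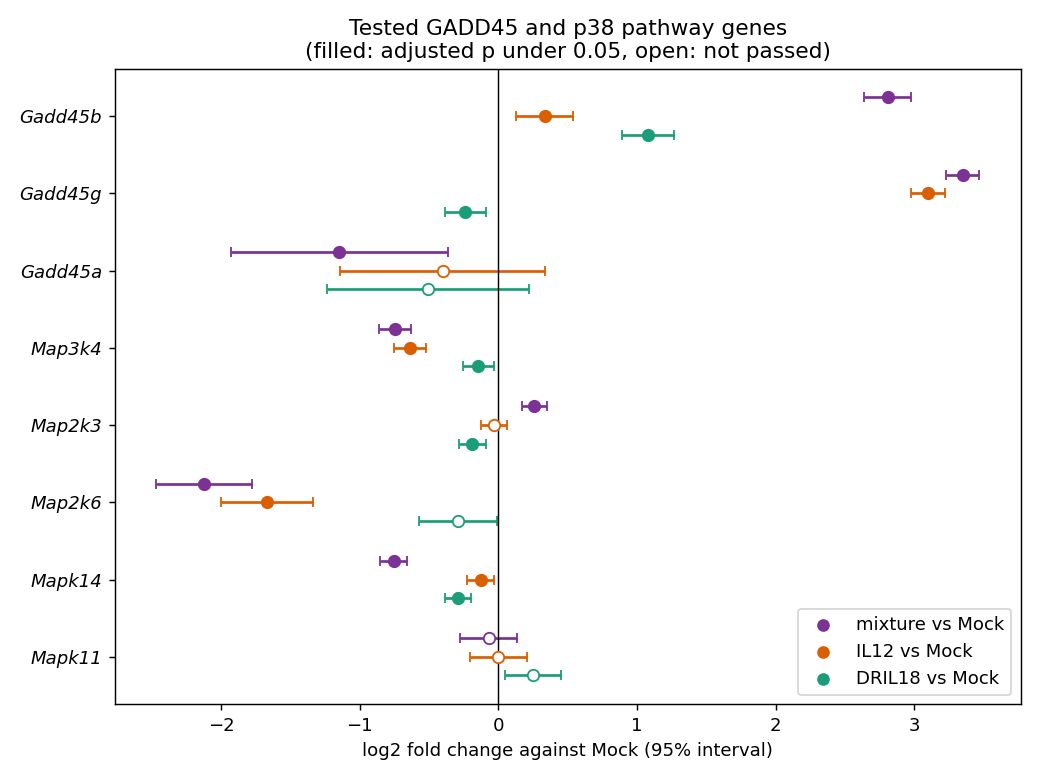
Log2 fold changes of the 8 tested genes in mixture, IL12 and DRIL18 cells against Mock, with 95% intervals from the fit of 10 libraries. Filled points passed at an adjusted p under 0.05. Gadd45b and Gadd45g stand far to the right in the mixture, as does Gadd45g with IL12, and Map2k6 reaches -2.13 in the mixture.

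Gadd45b, the family member known to be raised by IL-18, was highest in the mixture. It stood at 56.3 and 59.7 CPM in the mixture, 10.9 and 9.97 CPM with IL12, 18.0 and 16.9 CPM with DRIL18, 7.67 and 8.86 CPM in Mock, and 9.67 and 8.71 CPM in NoEp. Both mixture libraries lay over 3 times above the highest DRIL18 library, and the DRIL18 libraries lay above all IL12, Mock and NoEp libraries. Mock and NoEp overlapped and did not pass (-0.15, adjusted p = 0.453). Against Mock, Gadd45b rose by 2.81 ± 0.084 on the log2 scale in the mixture (SE, adjusted p = 3.72e-23). With DRIL18 it rose by 1.08 ± 0.0928 (2.12-fold, adjusted p = 1.64e-10). With IL12 it rose by 0.34 ± 0.101 (1.26-fold, adjusted p = 0.00696). That small call was lost without IL12 replicate 1 (0.28, adjusted p = 0.0771) or Mock replicate 1 (0.23, adjusted p = 0.137), and over all alternatives its adjusted p ran between 0.00435 and 0.137.

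Gadd45g, the family member known to be raised by IL-12, split the groups in another way. It stood at 210 and 231 CPM in the mixture, 183 and 186 CPM with IL12, 18.1 and 18.4 CPM with DRIL18, 23.2 and 19.9 CPM in Mock, and 18.3 and 16.9 CPM in NoEp. The libraries formed a high set, mixture and IL12, and a low set with the other groups. Within the low set DRIL18 and NoEp overlapped. Gadd45g rose by 3.35 ± 0.059 in the mixture against Mock (10.2-fold, adjusted p = 5.83e-29) and by 3.10 ± 0.0593 with IL12 (8.56-fold, adjusted p = 9.49e-28). With DRIL18 it fell by 0.24 on the log2 scale (adjusted p = 0.0158), below both Mock libraries. Without Mock replicate 1 the DRIL18 difference was -0.12 (adjusted p = 0.392). It also missed the threshold without either DRIL18 library and with limma-voom (-0.23, adjusted p = 0.0594), and its adjusted p ran between 0.00495 and 0.392 over all alternatives. Mock was higher than NoEp by 0.30 (adjusted p = 0.012), a call lost without Mock replicate 1 (0.18, adjusted p = 0.356), without NoEp replicate 2 (0.23, adjusted p = 0.221) and with the mark bis as a term (0.32, adjusted p = 0.106).

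Gadd45a, the member known as a target of p53, was low throughout. It had 14 and 21 counts in the mixture, 31 and 23 with IL12, 20 and 35 with DRIL18, 41 and 38 in Mock, and 36 and 48 in NoEp. In CPM these were 0.409 and 0.622 in the mixture, 1.01 and 0.723 with IL12, 0.577 and 1.03 with DRIL18, 1.16 and 1.13 in Mock, and 1.13 and 1.34 in NoEp. The mixture lay below Mock and NoEp and overlapped DRIL18. Its fall of 1.15 ± 0.384 against Mock passed (adjusted p = 0.0102). The call was lost without mixture replicate 1 (-0.87, adjusted p = 0.11), with adjusted p-values between 0.00472 and 0.11 over all alternatives. Neither IL12 (-0.40, 95% interval -1.14 to 0.33, adjusted p = 0.386) nor DRIL18 (-0.51, -1.24 to 0.22, adjusted p = 0.344) passed. Gadd45a overlaps the antisense gene E230016M11Rik, which had 5 and 3 counts in the mixture, 35 and 13 in Mock. The kit marks strand, but the strand setting of the counting is not given, so reads of the pair may be shared.

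**Figure D2:**
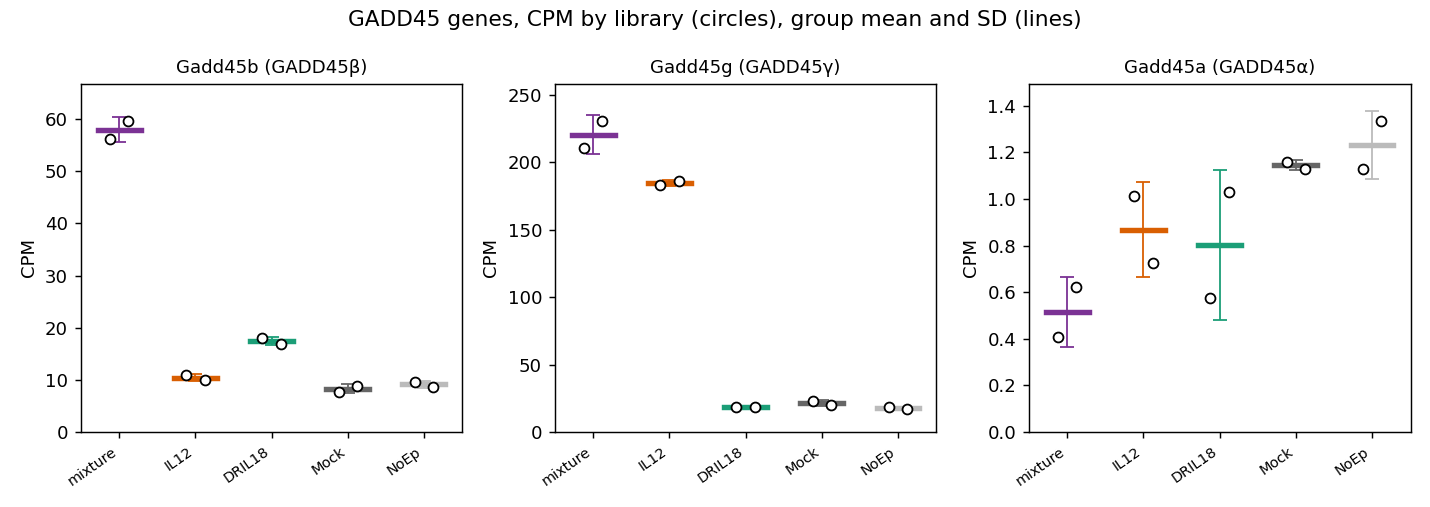
CPM of Gadd45b, Gadd45g and Gadd45a in each library (circles), with group mean and SD (lines, n = 2) and a scale of its own for each gene. Gadd45b stands apart in the mixture, Gadd45g is high in mixture and IL12 libraries, and Gadd45a stays under 1.4 CPM everywhere.

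Map3k4 encodes MEKK4, the kinase that GADD45 proteins bind. It stood at 30.09 and 30.11 CPM in the mixture, 31.6 and 33.1 CPM with IL12, 45.7 and 45.6 CPM with DRIL18, 51.2 and 49.8 CPM in Mock, and 50.8 and 50.4 CPM in NoEp. The groups formed a lower set, mixture and IL12, and an upper set, DRIL18, Mock and NoEp. Mock and NoEp overlapped. Map3k4 fell by 0.75 ± 0.0563 in the mixture (1.68-fold lower, adjusted p = 4.77e-13) and by 0.64 ± 0.0564 with IL12 (1.56-fold lower, adjusted p = 5.12e-11). The mixture and IL12 did not differ past the threshold (-0.11, 95% interval -0.227 to 0.016, adjusted p = 0.142). The DRIL18 difference from Mock sat at the threshold (-0.14, adjusted p = 0.0498). It missed in 13 of 17 alternatives, DESeq2 (adjusted p = 0.0852) and the fit with no filter (adjusted p = 0.121) included, with adjusted p-values between 0.0402 and 0.244.

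The kinases that phosphorylate p38 moved in opposite directions in the mixture. Map2k3 (MKK3), the more abundant, stood at 102.2 and 101.6 CPM in the mixture, 85.5 and 80.8 CPM with IL12, 75.3 and 74.2 CPM with DRIL18, 86.9 and 83.2 CPM in Mock, and 77.3 and 74.6 CPM in NoEp. Only in the mixture did both libraries lie above all Mock libraries. Mock overlapped IL12, and NoEp overlapped DRIL18. Map2k3 rose by 0.26 ± 0.0451 in the mixture (1.198-fold, adjusted p = 8.01e-06) and fell by 0.19 on the log2 scale with DRIL18 (adjusted p = 0.00265). The DRIL18 call was lost without Mock replicate 1 (-0.16, adjusted p = 0.0673, range 0.00117 to 0.0673). IL12 did not pass (-0.03, adjusted p = 0.599). On total counts without TMM, however, Map2k3 passed as lower with IL12 (-0.12, adjusted p = 0.0295, range 0.0295 to 0.994). Mock was higher than NoEp by 0.16 (adjusted p = 0.0261), which did not hold with the mark bis as a term (0.11, adjusted p = 0.51) or without either Mock library or NoEp replicate 2.

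Map2k6 (MKK6) showed the largest fall of the 8 genes. It stood at 2.04 and 1.69 CPM in the mixture, 2.65 and 2.48 CPM with IL12, 6.11 and 7.25 CPM with DRIL18, 8.20 and 8.12 CPM in Mock, and 8.10 and 10.1 CPM in NoEp. From lowest to highest, the order ran mixture, IL12, DRIL18, Mock and NoEp, and of these groups only Mock and NoEp overlapped. Map2k6 fell by 2.13 ± 0.167 in the mixture (4.36-fold lower, adjusted p = 1.18e-12) and by 1.67 ± 0.161 with IL12 (3.18-fold lower, adjusted p = 3.5e-10). DRIL18 did not pass (-0.29, 95% interval -0.57 to -0.0082, adjusted p = 0.135). Mixture against IL12 missed narrowly (-0.46, adjusted p = 0.0562). It passed with the mark bis as a term (-0.52, adjusted p = 0.0485) and without mixture replicate 1 (-0.60, adjusted p = 0.049) or either NoEp library, with a range of 0.0485 to 0.281.

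Mapk14 encodes p38α, the main p38 of T cells. It stood at 74.0 and 71.1 CPM in the mixture, 117 and 107 CPM with IL12, 97.2 and 103 CPM with DRIL18, 124 and 121 CPM in Mock, and 117 and 122 CPM in NoEp. Both mixture libraries lay well below every other library. DRIL18 lay below Mock and NoEp, and IL12 overlapped NoEp. The gene overlaps AC170998.1 on its own strand, which had at most 6 counts in a library. Mapk14 fell by 0.75 ± 0.048 in the mixture (1.69-fold lower, adjusted p = 7.72e-15) and by 0.29 ± 0.0467 with DRIL18 (1.22-fold lower, adjusted p = 1.77e-05). With IL12 it fell by 0.13 on the log2 scale (adjusted p = 0.024). That small call was lost with DESeq2 (-0.12, adjusted p = 0.0588), with the mark bis as a term (adjusted p = 0.0795) and without IL12 replicate 2 (-0.06, adjusted p = 0.382) or either Mock library, with a range of 0.000223 to 0.382.

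Mapk11 (p38β) passed in none of the comparisons with Mock. It stood at 11.5 and 10.4 CPM in the mixture, 10.8 and 12.1 CPM with IL12, 13.5 and 13.9 CPM with DRIL18, 11.99 and 10.97 CPM in Mock, and 13.1 and 14.2 CPM in NoEp. Mixture, IL12 and Mock overlapped, and so did DRIL18 and NoEp. The differences from Mock were -0.07 in the mixture (95% interval -0.275 to 0.136, adjusted p = 0.57), -0.001 with IL12 (-0.208 to 0.205, adjusted p = 0.994) and 0.25 with DRIL18 (0.0492 to 0.449, adjusted p = 0.0628).

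Mapk13 (p38δ), an isoform best known from epithelial and myeloid cells, was close to absent. It had 11 and 3 counts in the mixture, 4 and 2 with IL12, 0 and 5 with DRIL18, 2 and 0 in Mock, and 0 and 0 in NoEp. It was too low to be tested with all libraries. The ratio of mixture to Mock was 7.1 with a 95% interval of 1.63 to 64.4, which covers counting error only. The ratios to Mock were 3.31 (0.593 to 33.6) with IL12 and 2.51 (0.411 to 26.4) with DRIL18. Without the filter on low counts the mixture did not pass against Mock (adjusted p = 0.142). When single libraries were left out, Mapk13 entered the fit only through the 11 counts of mixture replicate 1, so those fits are not read as tests.

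**Figure D3:**
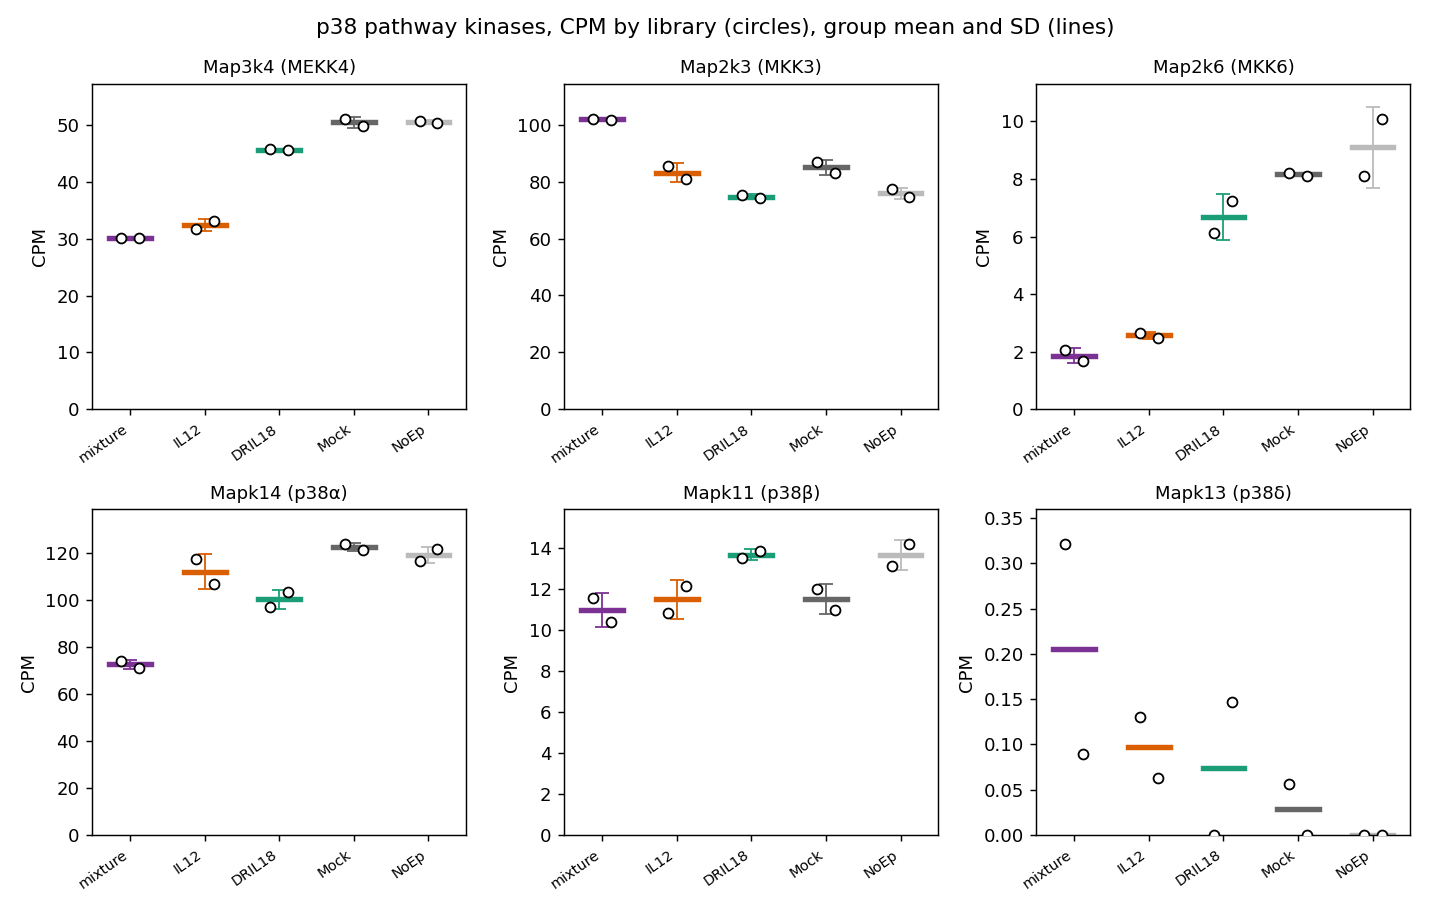
CPM of the 6 kinase genes in each library (circles) with group means and, except for Mapk13, SD (lines, n = 2), each on its own scale. Map3k4 and Map2k6 are low in mixture and IL12 libraries, Mapk14 is lowest in the mixture, and Mapk13 stays under 0.35 CPM.

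To compare the genes with each other, CPM were divided by exon length in kb. In the mixture Gadd45g was the most abundant, at 188 CPM per kb, followed by Gadd45b at 36.5, Map2k3 at 30.7, Mapk14 at 16.6, Mapk11 at 3.79, Map3k4 at 2.96, Map2k6 at 0.542 and Gadd45a at 0.292. In Mock the order was Mapk14 at 27.7 to 28.3, Map2k3 at 25.7, Gadd45g at 18.4, Gadd45b at 5.2, Map3k4 at 4.96, Mapk11 at 3.98, Map2k6 at 2.37 and Gadd45a at 0.649. Gadd45g also led with IL12, at 157 against 25.6 for Mapk14. With DRIL18, Mapk14 (22.9) and Map2k3 (22.5) lay close together, and in NoEp Mapk14 led at 27.2. So a GADD45 gene led in the mixture and with IL12, and a p38 gene in Mock and NoEp. Summed over the 3 genes, GADD45 mRNA was 215 to 234 CPM per kb in the mixture, 163 to 165 with IL12, 26.9 to 27.1 with DRIL18, 23.2 to 25.2 in Mock and 20.6 to 22.3 in NoEp.

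The make-up of the family also differed. Gadd45g was 83.4 to 83.8% of GADD45 mRNA per length in the mixture, 95.5 to 96.0% with IL12, 57.0 to 58.3% with DRIL18, 73.2 to 78.3% in Mock and 69.7 to 69.9% in NoEp. Gadd45b was 16.0 to 16.5% in the mixture, 3.8 to 4.19% with IL12, 39.6 to 41.8% with DRIL18, 19.1 to 24.1% in Mock and 26.6 to 27.2% in NoEp. The Gadd45b share was thus highest with DRIL18, although its level was highest in the mixture.

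On the p38 side the sum over Mapk14, Mapk11, Mapk12 and Mapk13 was 20.0 to 21.2 CPM per kb in the mixture, 28.8 to 30.7 with IL12, 27.2 to 28.7 with DRIL18, 31.8 to 32.8 in Mock and 31.5 to 33.1 in NoEp. Mapk14 made up 79.8 to 81.1% of it in the mixture, against 86.1 to 87.1% in Mock. Its share was 84.7 to 87.4% with IL12, 81.6 to 82.1% with DRIL18 and 83.9 to 84.5% in NoEp. Mapk11 made up 17.9 to 18.9% in the mixture, against 11.9 to 12.7% in Mock. Its share was 12.2 to 14.6% with IL12, 16.7 to 17.1% with DRIL18 and 14.4 to 14.8% in NoEp. Map2k6 was 1.57 to 1.89% of the sum of Map2k3 and Map2k6 in the mixture, 2.87 to 2.89% with IL12, 7.25 to 8.59% with DRIL18 and 8.33 to 8.58% in Mock. That sum itself was 31.1 to 31.4 CPM per kb in the mixture, against 27.5 to 28.6 in Mock.

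**Figure D4:**
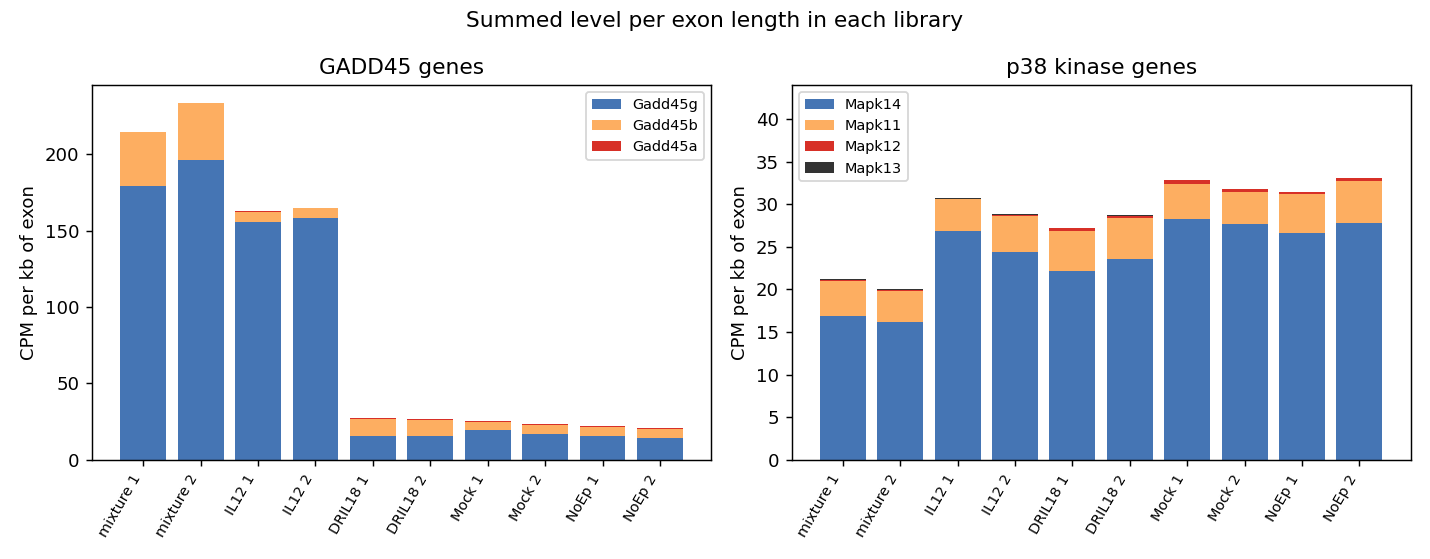
Stacked CPM per kb of exon for the GADD45 genes (left) and the p38 genes (right) in each library. The GADD45 sums reach 215 to 234 in the mixture and 163 to 165 with IL12 and stay under 28 elsewhere, while the p38 sums are lowest in the mixture at 20.0 to 21.2.

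To see what each mRNA added to the other, the mixture was compared with each single mRNA. Against DRIL18 the mixture had more Gadd45g, Gadd45b and Map2k3 and less Map2k6, Map3k4, Mapk14 and Mapk11. That is 3 higher and 4 lower, beside 28.3% and 29% of all tested genes. Gadd45g was 12.1-fold higher (3.59 ± 0.0604, adjusted p = 2.53e-29) and Gadd45b 3.32-fold higher (1.73 ± 0.0757, adjusted p = 1.05e-18). Map2k3 was 1.36-fold higher (adjusted p = 5.94e-10). Map2k6 was lower by 3.57-fold (adjusted p = 8.3e-11), Map3k4 by 1.52-fold (adjusted p = 1.17e-10) and Mapk14 by 1.38-fold (adjusted p = 9.67e-10). Mapk11 was lower by 1.25-fold (-0.32, adjusted p = 0.00656). Its call was lost without mixture replicate 2 (-0.24, adjusted p = 0.0951, range 0.00145 to 0.0951). Gadd45a did not pass (-0.64, adjusted p = 0.183).

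Against IL12 the mixture had more Gadd45b, Map2k3 and Gadd45g and less Mapk14. That is 3 higher and 1 lower, beside 25.8% and 26.3% of all tested genes. Gadd45b was 5.57-fold higher (2.48 ± 0.0823, adjusted p = 1.26e-21), while Gadd45g was 1.195-fold higher (0.26 ± 0.048, adjusted p = 3.44e-05). Map2k3 was 1.23-fold higher (adjusted p = 2.15e-06), and Mapk14 was 1.54-fold lower (-0.63 ± 0.0485, adjusted p = 1.79e-12). Map3k4, Map2k6, Mapk11 (-0.07, adjusted p = 0.616) and Gadd45a (-0.75, adjusted p = 0.125) did not pass.

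Set directly against each other, the single mRNAs differed in 7 of the 8 genes. With IL12, 3 genes were higher than with DRIL18 and 4 lower, beside 18.9% and 20.6% of all tested genes. Gadd45g was 10.1-fold higher with IL12 (3.34 ± 0.0608, adjusted p = 2.77e-28). Gadd45b was 1.68-fold lower (-0.75 ± 0.091, adjusted p = 5.47e-08), Map2k6 2.60-fold lower (adjusted p = 3.43e-08) and Map3k4 1.41-fold lower (adjusted p = 1.68e-08). The other differences were small. Mapk14 was higher with IL12 by 0.16 (adjusted p = 0.00695) and Map2k3 by 0.15 (adjusted p = 0.00825). On total counts without TMM, both calls were lost (Mapk14 0.07, adjusted p = 0.264; Map2k3 0.06, adjusted p = 0.309). They were also lost without IL12 replicate 1 (Mapk14 0.10, adjusted p = 0.175; Map2k3 0.12, adjusted p = 0.103). Mapk14 missed without DRIL18 replicate 1 (0.12, adjusted p = 0.126), with a range of 0.000472 to 0.264. Map2k3 missed without DRIL18 replicate 2 (0.15, adjusted p = 0.0584), with a range of 0.00436 to 0.309. Mapk11 was lower with IL12 by a margin at the threshold (-0.25, adjusted p = 0.0442) and missed in 12 of 17 alternatives, with adjusted p-values between 0.0057 and 0.316.

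Whether the mixture differed from the sum of its parts was tested as an interaction: the mixture's log2 fold change less those of IL12 and DRIL18 added together, each against Mock. It was positive for 3 genes and negative for 1, beside 14.6% and 17.1% of all tested genes. Gadd45b lay furthest above the sum, at 2.81 against 1.42 (difference 1.40 ± 0.127, adjusted p = 2.27e-10). In CPM the mixture averaged 58.0, where the added log2 changes give 22.0. Adding on the log2 scale multiplies fold changes, so this is not a sum in CPM. Gadd45g lay above the sum by 0.50 ± 0.0876 (adjusted p = 4.07e-05), with 220 CPM where the added log2 changes give 156. Map2k3 was higher in the mixture, while the sum of its single effects was -0.22 (difference 0.48 ± 0.0648, adjusted p = 5.52e-07).

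Mapk14 lay below the sum, at -0.75 against -0.42 (difference -0.34 ± 0.0673, adjusted p = 0.000205). In CPM the mixture averaged 72.6, where the added log2 changes give 91.7. Map3k4 (0.04, 95% interval -0.125 to 0.203, adjusted p = 0.775), Map2k6 (-0.17, -0.663 to 0.328, adjusted p = 0.665) and Gadd45a (-0.24, -1.34 to 0.867, adjusted p = 0.797) did not differ from the sum past the threshold. Nor did Mapk11 (-0.32, adjusted p = 0.0891), although it passed without IL12 replicate 1 (-0.40, adjusted p = 0.0452, range 0.0452 to 0.308).

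**Figure D5:**
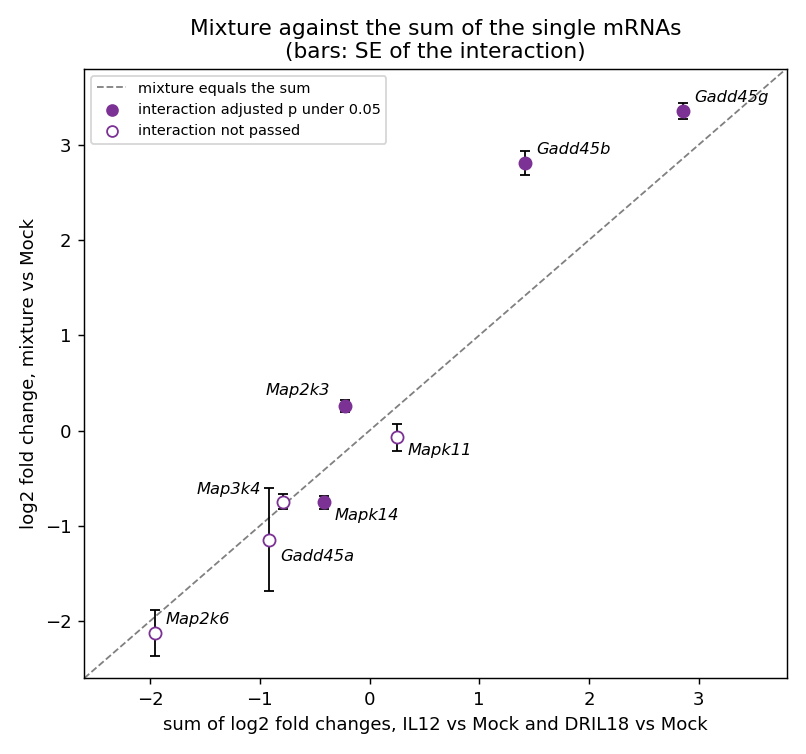
Log2 fold change in the mixture against Mock (vertical axis) plotted over the added log2 fold changes of the single mRNAs, IL12 and DRIL18, each against Mock (horizontal axis). Bars are the SE of the interaction, and the dashed line marks equality. Gadd45b, Gadd45g and Map2k3 lie above the line and Mapk14 below it.

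For each GADD45 gene, the 3 genes with the most similar pattern were taken from 12103 tested genes of at least 1 CPM. Likeness was the root-mean-square difference of centred log2 CPM over the 10 libraries, a description without a test. Nearest to Gadd45b were Rilpl2 (0.166), Ern1 (0.205), the gene of the unfolded-protein sensor IRE1α, and Zfp385a (0.212). Rilpl2 averaged 311 CPM in the mixture, 54.5 with IL12, 108 with DRIL18, 56.5 in Mock and 57.5 in NoEp. Nearest to Gadd45g were Eps8 (0.258), an adaptor of actin and growth factor signalling, Cetn4 (0.369) and Lilr4b (0.378). Eps8 averaged 50.5 CPM in the mixture, 48.9 with IL12, 3.06 with DRIL18, 4.69 in Mock and 3.17 in NoEp. Lilr4b averaged 132 CPM in the mixture and 231 CPM with IL12. Nearest to Gadd45a were Nrbp2 (0.149), Gdpd3 (0.218) and Il11ra1 (0.22), which averaged 0.81, 0.735 and 2.71 CPM in the mixture, against 1.51, 2.15 and 5.41 CPM in Mock.

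The wider route was read from lists of 56 genes around the GADD45 proteins and p38, of which 53 were tested. In the mixture against Mock, 21 were higher and 23 lower, beside 32% and 31.9% of all tested genes, with a median log2 fold change of -0.11 beside -0.002 over all tested genes. The 21 include Dusp8, which passed the filter on low counts only through the mixture. Its place therefore supports nothing in this or any other count that involves the mixture. With IL12, 10 were higher and 19 lower (all genes 23% and 23.6%), and with DRIL18, 6 and 15 (12.2% and 12.1%). Without DRIL18 replicate 2 the DRIL18 total of 21 changed genes dropped to 12. In the mixture against DRIL18, 21 were higher and 17 lower (28.3% and 29%), and in the mixture against IL12, 19 and 23 (25.8% and 26.3%). With IL12 against DRIL18, 14 were higher and 15 lower (18.9% and 20.6%). The interaction was positive for 15 and negative for 8 (14.6% and 17.1%). In Mock against NoEp 4 were higher and 1 lower (3.34% and 3.64%), and none passed with the mark bis as a term or without Mock replicate 1, Mock replicate 2 or NoEp replicate 2.

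Among 14 kinases and adaptors upstream of MKK3 and MKK6, 4 were higher and 8 lower in the mixture, beside 32% and 31.9% of all tested genes. Map3k20 (ZAK), a kinase that senses stalled ribosomes, averaged 5.41 ± 0.231 CPM in the mixture and 1.16 ± 0.123 CPM in Mock (SD, n = 2 each), and rose by 2.22 (adjusted p = 3.12e-09). It also rose with DRIL18 (0.94, adjusted p = 0.00968), a call lost without DRIL18 replicate 2 (0.73, adjusted p = 0.139) or Mock replicate 1 (0.83, adjusted p = 0.0937). Map3k2 (-0.70), Taok2 (-0.60) and Map3k1 (-0.46), other kinases at the level of MEKK4, fell in the mixture. Mapk12 (p38γ), the remaining p38 isoform, had 0.671 and 0.622 CPM in the mixture, 0.327 and 0.692 with IL12, 1.36 and 1.15 with DRIL18, 1.47 and 1.16 in Mock, and 1.25 and 1.56 in NoEp. It fell by 1.02 in the mixture (adjusted p = 0.0129) and by 1.36 with IL12 (adjusted p = 0.0033). The mixture call was lost without mixture replicate 2 (-0.97, adjusted p = 0.0616) or Mock replicate 1 (-0.84, adjusted p = 0.106), and the IL12 call without IL12 replicate 1 (-0.92, adjusted p = 0.0795).

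Of 14 tested genes downstream of p38, 4 were higher and 7 lower in the mixture, beside 32% and 31.9% of all tested genes. Mapkapk2 (MK2), the kinase through which p38 stabilises cytokine mRNAs, averaged 254 ± 0.566 CPM in the mixture, 235 ± 2.4 with IL12, 143 ± 7.28 with DRIL18 and 124 ± 0.212 in Mock (SD, n = 2 each). It rose by 1.03 in the mixture (adjusted p = 2.87e-20), by 0.92 with IL12 and by 0.20 with DRIL18. Zfp36 (tristetraprolin), the mRNA-destabilising protein that MK2 inactivates, averaged 16.8 ± 0.785 CPM in the mixture, 48.0 ± 2.85 with IL12, 31.5 ± 1.14 with DRIL18 and 49.5 ± 0.41 in Mock. It fell by 1.56 in the mixture (adjusted p = 2.15e-19) and by 0.65 with DRIL18. The transcription factor genes Mef2c (1.43, adjusted p = 0.000329) and Mef2a (-0.89) moved in opposite directions in the mixture.

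The 9 phosphatases listed for p38 are not all specific to it, and which kinase each acted on here was not tested. They split into 5 higher and 4 lower in the mixture, beside 32% and 31.9% of all tested genes. Dusp16 averaged 27.2 ± 0.615 CPM in the mixture, 14.3 ± 0.113 with IL12, 7.85 ± 1.89 with DRIL18 and 6.55 ± 0.303 in Mock, and rose by 2.05 in the mixture (adjusted p = 1.37e-16). Dusp8 had 66 counts in both mixture libraries together and 2 in both Mock libraries, a ratio of 33.5 (95% interval 8.91 to 282, counting error only). It passed the filter on low counts only through the mixture, where it is high, so its place among the 5 supports nothing. Dusp10 fell by 0.84 in the mixture and by 0.54 with IL12. Dusp1 fell by 0.45 in the mixture (adjusted p = 0.00188). The call was lost with the mark bis as a term (-0.30, adjusted p = 0.144) and without mixture replicate 2 (-0.33, adjusted p = 0.0552).

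GADD45 proteins are also linked to the JNK kinases, and they bind partners of growth arrest and DNA repair. Whether any of them raised or lowered JNK activity in these cells was not tested. Of 7 tested JNK genes, 3 were higher and 1 lower in the mixture, beside 32% and 31.9% of all tested genes. Jun, the JNK target and AP-1 subunit, rose by 2.28 in the mixture and by 3.19 with IL12, and fell by 0.38 on the log2 scale with DRIL18. Mapk8 (JNK1) rose by 0.58 and Map2k4 by 0.19, while Mapk9 (JNK2) fell by 0.13 (adjusted p = 0.0165). The Mapk9 call was lost without mixture replicate 1 (adjusted p = 0.065), mixture replicate 2 (adjusted p = 0.0582) or Mock replicate 1 (adjusted p = 0.106). Of 8 GADD45 partners and growth arrest genes, 5 were higher and 2 lower in the mixture, beside 32% and 31.9% of all tested genes. Cdkn1a, the cell-cycle inhibitor p21, averaged 478 ± 2.76 CPM in the mixture, 144 ± 21 with IL12, 102 ± 3.59 with DRIL18 and 61.6 ± 2.89 in Mock. It rose by 2.96 (adjusted p = 1.02e-26), 1.22 and 0.73 in these treated groups. Tdg, a DNA glycosylase that takes part in demethylation with GADD45 proteins, rose by 0.79 in the mixture and by 0.55 with IL12. Ercc5 (0.73) and Trp53 (0.38) also rose in the mixture.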

How the data were processed

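RNA of 10 libraries was sequenced from a stranded mRNA kit, per the labels' protocols. The submitters' processing notes name STAR 2.7.9, the build mm39, featureCounts, edgeR and limma. The sources used here give neither the annotation release nor the strand setting of the counting. The authors deposited raw counts, whole reads per gene without scaling, and a table of log2 values for 13225 genes. The deposited log2 values served only as a check: log2 CPM recomputed from the counts differed by at most 5e-14, and 8 of the 9 genes are in that table.

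The counts were analysed here with edgeR 4.0.16 in R 4.3.3: TMM scaling, filterByExpr (minimum count 10), 5 group means over all libraries, 5 residual degrees of freedom, the quasi-likelihood F test and Benjamini-Hochberg adjustment over 15777 genes. Each SE was taken from the log2 fold change and its F statistic. The common coefficient of variation between replicates was 3.39%. The 17 alternatives were RLE scaling, total counts without TMM, no filter, DESeq2 1.42.0, limma-voom (limma 3.58.1), a replicate block, the mark bis as a term and each library left out. Where a library is left out, its group's lone library is assumed to vary like the other groups. Only the main edgeR fit was tried on simulated counts, and only for the mixture against Mock. The interaction and the alternatives were not tried in this way.

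Gene symbols came from GENCODE M21 (GRCm38), joined by Ensembl identifier, which matched 52083 of 55359. Exon lengths are from the same annotation, which differs from the build of the counts. Promoters are from RefSeq GRCm38.p6, which held all 9 genes. Intervals of count ratios are exact binomial at 95% and cover counting error only.

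The genes and lists were chosen with earlier results of these data known. All 9 genes were named in every comparison with Mock. Of each pathway list, up to 4 genes with the largest changes past the test in the mixture against Mock were named, as were the 3 genes nearest in pattern to each GADD45 gene, and Il18 and Ifng as checks. Rps6ka4 matched no identifier, and Hspb1 and Mapk10 had too few reads to be tested. Ddit3 stands on 2 identifiers, of which the one with more counts was used.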

Additional observations from a re-analysis of the deposited data

Results flagged for a closer look

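For 4 genes the effect of the mixture differed from the sum of the effects of its parts, by edgeR's test of the interaction. The difference on the log2 scale was 1.40 for Gadd45b, 0.50 for Gadd45g and 0.48 for Map2k3. For Mapk14 it was -0.34. These 4 signs held in all 17 alternatives. Over the alternatives Gadd45b lay between 1.283 and 1.497, Gadd45g between 0.38 and 0.59, Map2k3 between 0.44 and 0.52 and Mapk14 between -0.40 and -0.27, and each passed in all of them.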

How the results depend on the processing

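Over the 17 alternatives, 998 of 1086 recomputed values of the 8 tested genes kept their direction and their side of the threshold, 52 lost a call, 6 gained one and 30 changed sign. All 30 belong to values that had not passed. Of 748 values of other pathway genes, 732 kept both and 16 lost a call. The causes were not tested. With the mark bis as a term, 172 genes changed between Mock and NoEp in place of 1102, and 0 of the 8 tested genes and 0 of the pathway lists. Leaving out 1 library gave 242 to 1399 genes, 0 to 2 of the 8 and 0 to 5 list genes in that comparison. For DRIL18 against Mock it gave 2525 to 4125 genes in place of 3832, 2 to 5 of the 8 and 12 to 23 list genes. It gave 3 to 5 of the 8 for IL12 against Mock and 4 to 7 for IL12 against DRIL18.

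Signs changed as follows, on the log2 scale. In Mock against NoEp, Gadd45a was 0.0625 with the mark bis as a term. Map3k4 was 0.000536 there with RLE scaling, 0.000457 with DESeq2, 0.00401 with no filter and 0.0234 with the mark. In IL12 against Mock, Mapk11 was 0.00375 with RLE scaling, 0.00377 with DESeq2 and 0.00728 with no filter. With 1 library left out, Gadd45a ran from -0.25 to 0.59 in IL12 against DRIL18, from -0.215 to 0.0192 in Mock against NoEp and from -0.60 to 0.24 in the interaction. Map2k3 ran from -0.0704 to 0.00858 in IL12 against Mock. In Mock against NoEp, Map2k6 ran from -0.30 to 0.0113 and Map3k4 from -0.0203 to 0.018. Mapk11 ran from -0.0873 to 0.0821 in IL12 against Mock, from -0.15 to 0.0173 in the mixture against IL12 and from -0.15 to 0.00328 in the mixture against Mock. The deviations of same-numbered libraries correlated between -0.0394 and 0.0412. With IL12 and with DRIL18 the mark bis also separates the libraries of the group, so it is part of these deviations. Whether same-numbered libraries shared an animal or culture therefore cannot be decided from these small values. A replicate block moved Map3k4 in DRIL18 against Mock to an adjusted p of 0.0535 and Mapk11 in IL12 against DRIL18 to 0.0527, and changed no other call of the 8 genes. Of the 3 genes most like Gadd45a or Gadd45b, as few as 1 was the same with a library left out. Gadd45a had 14 to 48 counts per library, and Mapk13, which was too low to be tested, had at most 11.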
